A study of Mus musculus with 19 samples.

Results

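The genes described here are 42 genes of DNA replication and mitosis in mouse liver, taken by name from the deposited expression table at any expression level. Of these, 18 act in S phase or in the approach to it, and 24 act in G2 and mitosis. Each matched exactly 1 of the 52110 named entries, and each passed the filter on low values (a mean of at least 0.1 FPKM over all 19 samples). On the 10 chow samples alone, 22 members had such a mean, 14 of 18 S-phase and 8 of 24 G2/M genes. The other 20 passed only through their levels in CDAHFD samples, so counts of members that rose on CDAHFD are given as a description.

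Whole liver of wild-type (WT) mice was sequenced. The mice ate normal chow (NC) or CDAHFD, a high-fat diet that lacks choline, has defined L-amino acids and produces steatohepatitis. On each diet they had remote limb ischemic conditioning (RIC), in which a limb is briefly deprived of blood and reperfused, or sham treatment. The set held 5 sham and 5 RIC samples on chow (NC sham, NC RIC), and 5 sham and 4 RIC samples on CDAHFD (CDAHFD sham, CDAHFD RIC). Age, time on diet and the RIC schedule are not given in the sources used here. The labels call the samples replicates without saying that they are different animals, and a p-value covers only the variation among them, which may be technical. Levels are in FPKM, fragments scaled to gene length and to the mapped fragments of the sample, in replicate order where a group's values are listed. Differences are on the log2(FPKM + 1) scale, which understates the change of genes far below 1 FPKM, and a gene is called at an adjusted p under 0.05 (limma, Benjamini-Hochberg over 17311 genes). Depth, estimated from the smallest steps in the values, was 15.9 M to 26.4 M reads per sample, and a level of 0.1 FPKM stood for about 3.01 to 30.4 reads, depending on the member's length. Summed FPKM of 8 hepatocyte markers lay between 32548 and 66757 in every sample, which matches the labelled tissue.

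Cells copy their DNA once per cycle. The MCM helicase is loaded on origins by CDC6 and CDT1, joined by the GINS complex and fired, while E2F factors and cyclin E drive entry into S phase. Cyclin B with CDK1, and later the anaphase-promoting complex with CDC20, carry the cell through mitosis. Hepatocytes of an adult liver are largely quiescent, can re-enter the cycle after injury, and can copy DNA without dividing, which makes them polyploid. In bulk tissue, fewer cells of a type and less RNA per cell cannot be told apart.

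Promoters of G2/M genes are known for the CHR element, bound by the DREAM complex in resting cells and by B-MYB and FOXM1 complexes in G2, often beside a CCAAT box bound by NF-Y. Promoters of G1/S genes are known for E2F sites. RefSeq promoter windows (GRCm38.p6, 250 bases before to 50 after the start) were found for 34 of 42 members, 15 S-phase and 19 G2/M genes. The following 4 stretches, from 160 bases before to 20 after the start, show the sites of 2 G2/M genes that fell after RIC and of 2 S-phase genes that were not called. Capitals mark TTTGAA (CHR) and CCAAT in the first pair, and E2F motifs and CCAAT in the second, on either strand.
Cdc20, chr4:118437324-118437503, minus strand: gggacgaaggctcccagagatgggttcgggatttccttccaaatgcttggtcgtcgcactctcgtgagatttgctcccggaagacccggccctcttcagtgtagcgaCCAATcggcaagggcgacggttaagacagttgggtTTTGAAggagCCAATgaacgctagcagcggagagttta
Ccnb2, chr9:70421535-70421714, minus strand: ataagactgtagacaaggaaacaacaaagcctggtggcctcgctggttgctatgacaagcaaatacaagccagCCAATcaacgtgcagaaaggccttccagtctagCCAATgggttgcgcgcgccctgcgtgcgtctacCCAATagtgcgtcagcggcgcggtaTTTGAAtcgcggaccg
Mcm6, chr1:128359686-128359865, minus strand: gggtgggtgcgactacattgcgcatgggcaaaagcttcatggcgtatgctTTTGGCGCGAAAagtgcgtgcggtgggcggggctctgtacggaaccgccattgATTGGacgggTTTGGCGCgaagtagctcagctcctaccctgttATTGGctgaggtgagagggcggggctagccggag
Mcm5, chr8:75109349-75109528, plus strand: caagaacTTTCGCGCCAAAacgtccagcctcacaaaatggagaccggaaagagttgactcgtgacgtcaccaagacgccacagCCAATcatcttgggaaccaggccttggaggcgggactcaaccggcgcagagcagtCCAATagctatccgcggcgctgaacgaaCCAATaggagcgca

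In Cdc20 the CHR match begins at -18 and CCAAT at -53 and -8, counted with -1 as the last base before the start. In Ccnb2 the CHR match begins at 5 after the start, with CCAAT at -87, -54 and -21. Mcm6 holds E2F motifs at -110, -106 and -47, of which the first pair overlap on opposite strands, and Mcm5 holds an overlapping pair at -153 and -149. The CHR was searched as TTTGAA or TTTAAA, the CCAAT box as CCAAT, and the E2F site as TTTCCCGC, TTTCGCGC, TTTGCCGC or TTTGGCGC, on both strands of the 300-base windows. A CHR match stood in 17 of 19 G2/M genes (89.5%) and 6 of 15 S-phase genes (40%), against 30.6% of all 27025 genes with a window and 23% of 10175 protein-coding genes tested. With TTTGAA alone the counts were 14 of 19 and 1 of 15, against 20.2% of all genes. A CCAAT match stood in 17 of 19 G2/M and 9 of 15 S-phase genes, against 41.1% of all genes. E2F matches stood in 7 of 15 S-phase genes (46.7%) and in 1 of 19 G2/M genes, Cdk1, against 2.6% of all genes. A match in the letters is not a measured binding site.

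On chow the G2/M genes lay near 0. Mean FPKM over the 10 chow samples had a median of 0.0381 over the 24 G2/M genes, with 0.371 for the highest of them, Aurka, and 14 of them were listed at 0 in at least 1 chow sample. Bub1, a spindle checkpoint kinase, was listed at 0 in all 10. The S-phase genes had a median of 0.312 and reached 8.99 for Pcna, the sliding clamp of DNA polymerases. Over the 9 CDAHFD samples the medians were 1.82 for S-phase and 1.56 for G2/M genes. The plot of members by sample shows the change between the diets in nearly every gene.

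**Figure D1:**
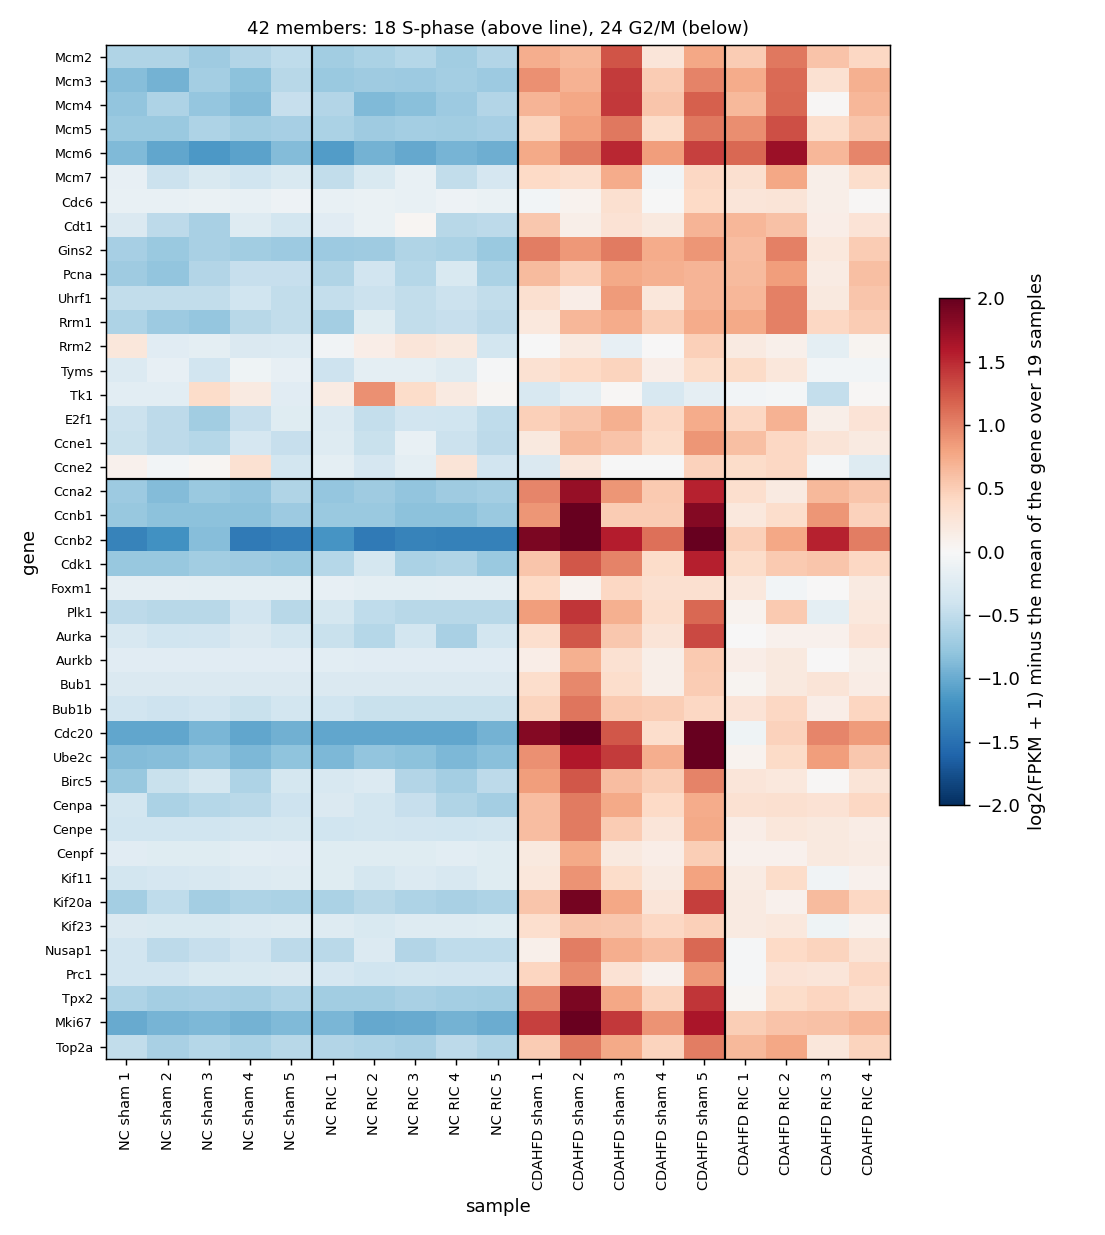
Each cell is 1 gene in 1 sample; the colour is log2(FPKM + 1) minus the gene's mean over 19 samples, from blue (below) to red (above). S-phase genes stand above the horizontal line and G2/M genes below it; CDAHFD sham 2 and 5 are darkest in the G2/M block, and Rrm2, Tk1 and Ccne2 show no clear step between the diets.

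In sham livers replication genes and mitotic genes were higher on CDAHFD together. All 24 G2/M genes and 15 of 18 S-phase genes were called higher on CDAHFD than on chow and none lower, 92.9% of the 42 members; of all genes tested 67% were called, 59.1% higher and 7.93% lower. The median log2 difference was 1.03 for S-phase and 1.28 for G2/M genes, against 0.34 for all genes tested. All sham samples on CDAHFD lay above all sham samples on chow in 39 of 42 members, against 47.2% of all genes tested. All 9 CDAHFD samples lay above all 10 chow samples in 24 of 24 G2/M and 14 of 18 S-phase genes. The share of all genes tested that did so is not given here. Only 8 of the 24 G2/M genes had a mean of at least 0.1 FPKM on chow, so that count is a description. Median-ratio scaling moved the median of all genes to 0.02 and the share of calls that were higher from 88.2% to 54.2% (48.7% with quantile normalization). Under median-ratio scaling 24 of 24 G2/M genes stayed called higher (median 0.96), while 13 of 18 S-phase genes were higher and 1, Tk1, lower (median 0.74). Of all 17311 genes 5073 were called higher and 4294 lower under that scaling.

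Among the S-phase genes the 6 subunits of the MCM helicase all rose, by a median of 1.53. Mcm6 had 0.44, 0.291, 0.205, 0.273 and 0.46 FPKM in the NC sham samples and 0.232, 0.378, 0.307, 0.404 and 0.36 in NC RIC. It had 3.5, 4.41, 6.59, 3.74 and 5.87 in CDAHFD sham and 4.92, 7.74, 3.21 and 4.25 in CDAHFD RIC. The lowest CDAHFD sample thus stood far above the highest chow sample, with means of 0.334 ± 0.111 and 4.82 ± 1.35 in the sham groups (SD, n = 5), a 14.5-fold difference of means (2.1 ± 0.16 (SE) on the log2 scale, adjusted p = 2.18e-09). Mcm2 went from 0.117 ± 0.0551 to 1.87 ± 0.734 FPKM, Mcm3 from 0.206 ± 0.131 to 2.92 ± 0.949 and Mcm4 from 0.428 ± 0.167 to 3.5 ± 1.18. Mcm5 went from 0.0567 ± 0.0415 to 1.92 ± 0.649 FPKM, whereas Mcm7, the helicase subunit highest on chow, went from 1.52 ± 0.183 to 3.11 ± 0.796.

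The 3 genes of origin loading and firing all rose, by a median of 0.78. Cdc6 was listed at 0 in 3 of 5 NC sham samples and reached 0.241 ± 0.177 FPKM in CDAHFD sham. Cdt1 went from 0.199 ± 0.135 to 1.07 ± 0.351 FPKM. Gins2, a subunit of the GINS complex, had 0.0564, 0, 0.071, 0.0369 and 0.0125 in NC sham and 0.0114, 0.023, 0.099, 0.0848 and 0 in NC RIC. It had 2.39, 2.07, 2.43, 1.8 and 2.09 in CDAHFD sham and 1.57, 2.36, 0.933 and 1.37 in CDAHFD RIC, so no CDAHFD sample overlapped a chow sample. Gins2 passed the filter only through its CDAHFD level, and its difference between the sham groups, 1.6, is a description. Of its annotated exonic bases 67.3% are shared with Gse1 on the opposite strand; no source used here says if counting used strand, and without it reads of the pair cannot be told apart.

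Pcna had 7.89, 7.43, 8.71, 9.55 and 9.59 FPKM in NC sham and 8.62, 10.1, 8.8, 10.8 and 8.37 in NC RIC. It had 21.6, 19.2, 23.7, 22.8 and 22.4 in CDAHFD sham and 21.7, 25.1, 15.3 and 21.2 in CDAHFD RIC. Every CDAHFD sample was above every chow sample, and the sham means differed 2.54-fold (1.25 ± 0.11 (SE), adjusted p = 1.20e-08). A Pcna pseudogene entry of the table, Pcna-ps2, reached 6.36 FPKM, and how shared reads were split is not given in the sources used here. Uhrf1, which guides DNA methylation to newly made DNA, was listed at 0 in 4 of 5 NC sham samples and had 0.939 ± 0.425 FPKM in CDAHFD sham. E2f1 rose from 0.264 ± 0.145 to 1.61 ± 0.26 and cyclin E1 (Ccne1) from 0.127 ± 0.0708 to 1.29 ± 0.422 FPKM.

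The genes of nucleotide supply did not move as 1 block. Rrm1, the large subunit of ribonucleotide reductase, rose from 0.495 ± 0.121 to 2.46 ± 0.511 FPKM and Tyms, thymidylate synthase, from 0.781 ± 0.139 to 1.6 ± 0.205. Rrm2, the small subunit, had 2.15, 1.31, 1.34, 1.21 and 1.22 in NC sham and 1.56, 1.95, 2.18, 2.09 and 1.1 in NC RIC. It had 1.67, 2.04, 1.4, 1.72 and 2.76 in CDAHFD sham and 2.05, 1.88, 1.34 and 1.79 in CDAHFD RIC, and all 4 groups overlapped (0.25 ± 0.14 (SE), 95% interval -0.04 to 0.54, adjusted p = 0.113).

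Tk1, thymidine kinase of the salvage route, had 1.66, 1.67, 2.99, 2.49 and 1.64 in NC sham and 2.45, 4.79, 3.0, 2.49 and 2.19 in NC RIC. It had 1.47, 1.69, 2.14, 1.47 and 1.74 in CDAHFD sham and 1.96, 1.99, 1.21 and 2.15 in CDAHFD RIC. The sham groups overlapped (-0.18 ± 0.16 (SE), adjusted p = 0.322), while all 4 CDAHFD RIC samples lay below all 5 NC RIC samples (-0.47 ± 0.17 (SE), adjusted p = 0.0196; 0.834 for RIC against sham on CDAHFD). Without NC RIC 2 the latter diet difference was -0.33 (adjusted p = 0.0579), and without CDAHFD RIC 3 it was -0.36 (adjusted p = 0.0836). With median-ratio scaling the sham difference was -0.60 and was called (adjusted p = 0.00378). Of the exonic bases of Tk1 1.6% are shared with Afmid on the opposite strand, which had means of 19.4 FPKM in NC RIC and 5.36 in CDAHFD RIC. Cyclin E2 (Ccne2) had 1.35, 1.13, 1.29, 1.74 and 0.72 in NC sham and 0.94, 0.758, 0.942, 1.66 and 0.703 in NC RIC. It had 0.811, 1.59, 1.2, 1.21 and 2.05 in CDAHFD sham and 1.87, 1.96, 1.17 and 0.862 in CDAHFD RIC, and the ranges overlapped (0.07 ± 0.16 (SE), adjusted p = 0.713), and its sign turned with scaling. Of its exonic bases 17.4% are shared with Ints8 on the opposite strand.

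**Figure D2:**
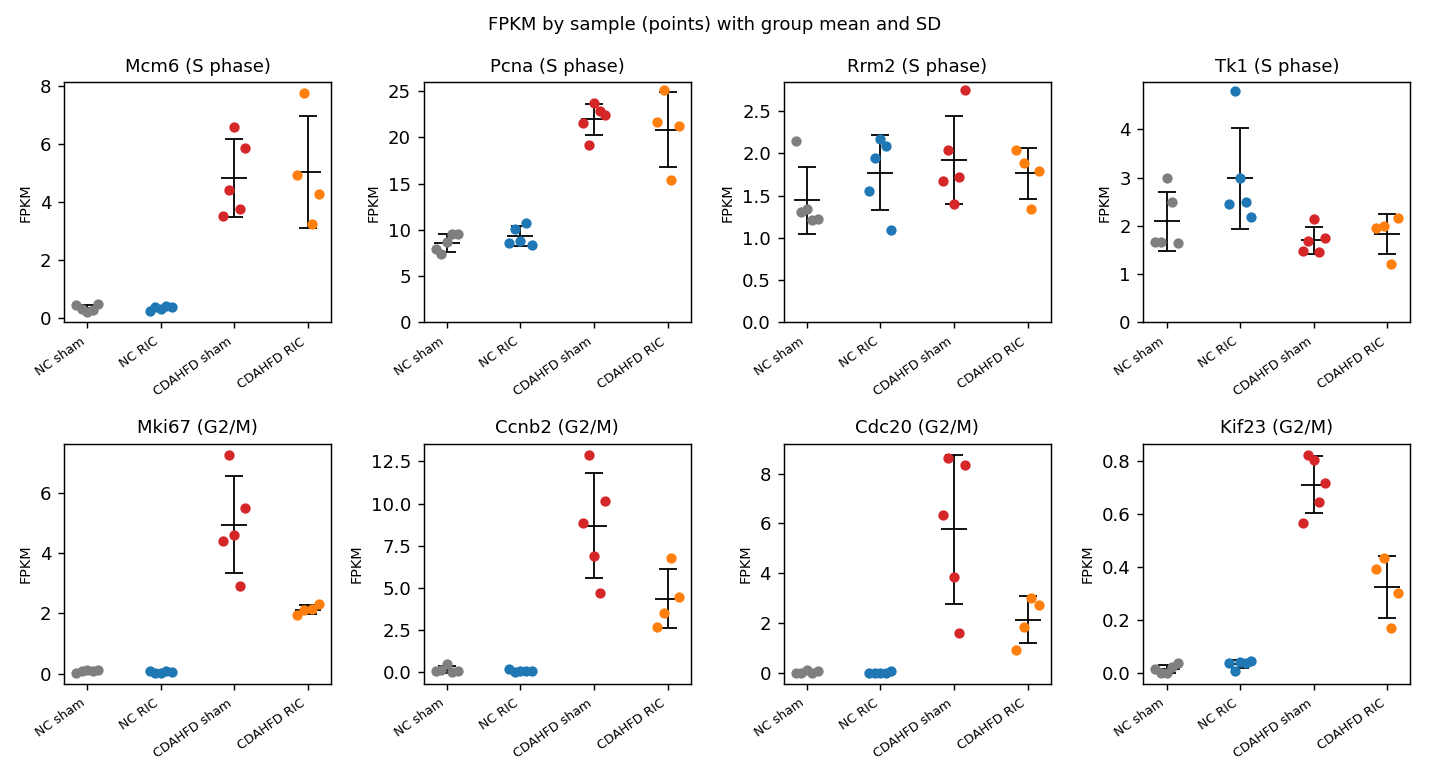
FPKM of 4 S-phase genes (upper row) and 4 G2/M genes (lower row) in each sample (points), by group on the horizontal axis, with group mean and SD (bars). Mcm6 and Pcna overlap between CDAHFD RIC and CDAHFD sham, Rrm2 and Tk1 overlap between the diets, and all CDAHFD RIC samples lie below all CDAHFD sham samples for Mki67 and Kif23.

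Among the mitotic cyclins, cyclin B2 (Ccnb2) had 0.0543, 0.15, 0.485, 0 and 0.0383 FPKM in NC sham and 0.174, 0, 0.0578, 0.0399 and 0.0476 in NC RIC. It had 8.87, 12.9, 6.91, 4.69 and 10.1 in CDAHFD sham and 2.7, 3.53, 6.78 and 4.44 in CDAHFD RIC. The difference between the sham groups was the largest of any member on the log2(FPKM + 1) scale, though not by the ratio of means (3.03 ± 0.20 (SE), adjusted p = 3.81e-10), with no overlap between diets, whereas the CDAHFD RIC and CDAHFD sham ranges overlapped. Ccna2, cyclin A2, went from 0.158 ± 0.078 to 3.47 ± 1.54 and Cdk1 from 0.128 ± 0.024 to 2.76 ± 1.25 FPKM between the sham groups. Of the exonic bases of Ccna2 12.5% are shared with Exosc9 on the opposite strand. Foxm1, a transcription factor of G2 genes, rose from a very low level, with 0.00652 ± 0.00893 FPKM in NC sham and 0.425 ± 0.127 in CDAHFD sham.

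The checkpoint kinases rose by a median of 0.87. Bub1b, the checkpoint kinase BUBR1, had 0.0406, 0.0269, 0.0426, 0 and 0.0523 FPKM in NC sham and 0.0318, 0, 0, 0 and 0 in NC RIC. It had 0.857, 1.84, 0.948, 0.915 and 0.817 in CDAHFD sham and 0.639, 0.818, 0.486 and 0.833 in CDAHFD RIC. All 9 CDAHFD samples were above all chow samples, and CDAHFD sham 2 was far above the rest. It too passed the filter only through its CDAHFD level, and the difference of 0.99 between the sham groups is a description. Kif20a, a kinesin of late mitosis, went from 0.0984 ± 0.0548 to 2.63 ± 1.77 FPKM, and 29.3% of its exonic bases are shared with Cdc23 on the opposite strand. Top2a, which untangles DNA, went from 0.053 ± 0.0476 to 1.7 ± 0.525 FPKM.

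After RIC on CDAHFD the mitotic genes were lower and the replication genes mostly were not. Against CDAHFD sham, 15 of 24 G2/M genes (62.5%) and 1 of 18 S-phase genes (5.56%, Gins2) were called lower in CDAHFD RIC and none higher; of all genes tested 20.7% were called, 14.3% lower and 6.41% higher. The median log2 difference was -0.47 for G2/M and -0.03 for S-phase genes, against -0.06 for all genes tested; with a common sum of FPKM, median-ratio scaling and quantile normalization the S-phase median was 0.03, 0.02 and 0.02 and the G2/M median -0.42, -0.36 and -0.37. The difference was negative in 24 of 24 G2/M and 9 of 18 S-phase genes. The highest of the 9 CDAHFD samples, 5 of which were sham, was a sham sample in 24 of 24 G2/M and 11 of 18 S-phase genes. For the counts of negative differences and of highest samples, shares over all genes are not given here. All RIC samples lay below all sham samples in 5 G2/M genes and no S-phase gene. These 5 of 42 members were a share near the 10.4% of all genes tested. Unless another fit is named, adjusted p values for RIC on CDAHFD use 1 spread per gene over all 19 samples. The mean log2(FPKM + 1) of the G2/M genes had an SD of 0.02 in NC sham and 0.03 in NC RIC. It was 0.36 in CDAHFD sham and 0.09 in CDAHFD RIC, so that spread can be too small on CDAHFD. With only the CDAHFD groups in the fit 3 of 42 members were called lower (Mki67, Kif23 and Birc5), a share near the 7.05% of all genes called lower in that fit. There 13 calls were lost, among them Cdc20 (adjusted p = 0.112), Aurka (0.105), Ccnb2 (0.0764), Tpx2 (0.0696) and Plk1 (0.0581). With a common sum of FPKM 12 members were called lower, against 7.64% of all genes, and with median-ratio scaling 11, against 6.78%. Of all calls 31% were higher after RIC, against 52.3%, 55.6% and 50.7% under the 3 scalings named.

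**Figure D3:**
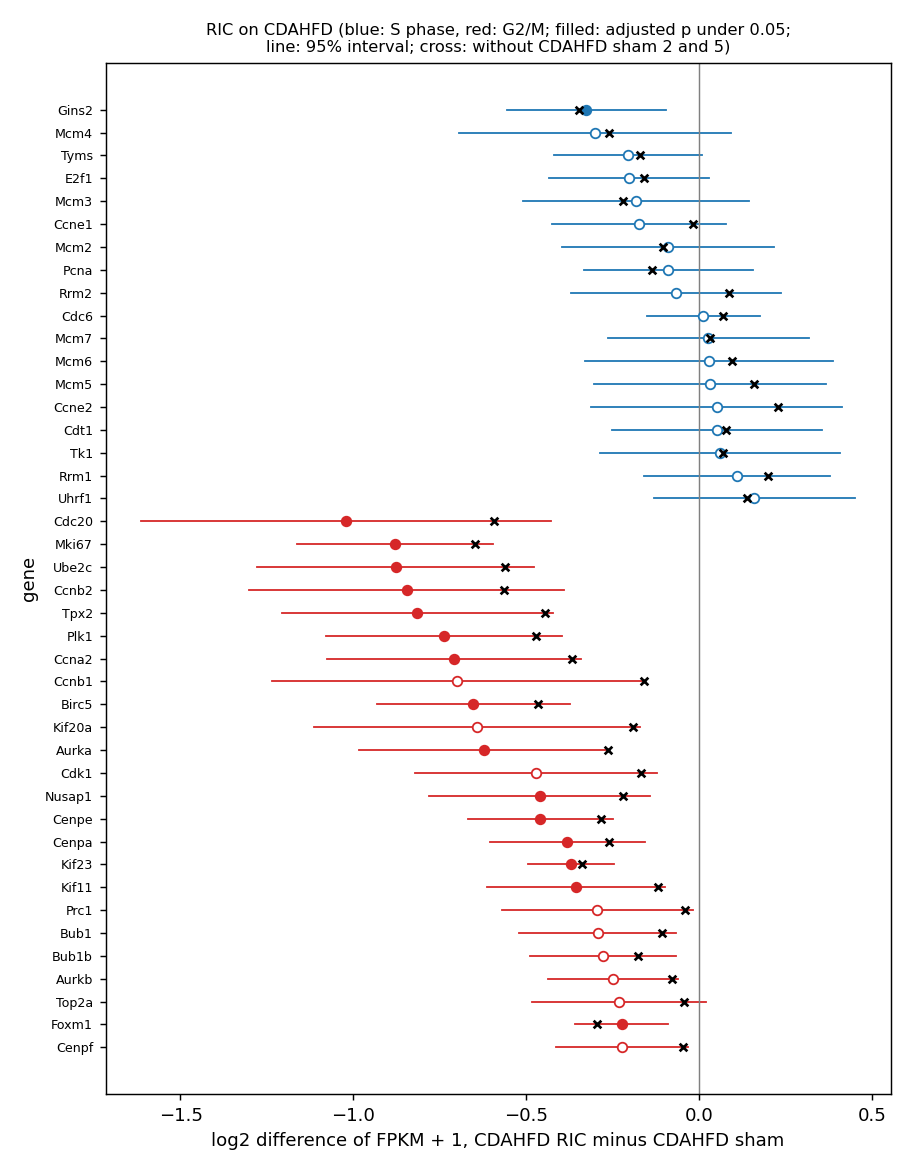
Log2 difference of FPKM + 1 between CDAHFD RIC and CDAHFD sham for each gene, with its 95% interval (line), S-phase genes in blue and G2/M genes in red; filled points have an adjusted p under 0.05, and crosses are the differences without CDAHFD sham 2 and 5. All 24 G2/M points lie left of 0 and all crosses of the G2/M genes too, while the S-phase points lie on both sides.

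Mki67, the proliferation marker that coats mitotic chromosomes (chr7:135689784-135716361, minus strand), had 4.39, 7.25, 4.61, 2.9 and 5.5 FPKM in CDAHFD sham and 1.95, 2.12, 2.14 and 2.32 in CDAHFD RIC, against 0.0365 to 0.133 in the 10 chow samples. All RIC samples lay in a narrow band below the lowest sham sample. The means were 4.93 ± 1.6 (SD, n = 5) and 2.13 ± 0.152 (SD, n = 4), 2.31-fold higher in sham (-0.88 ± 0.14 (SE), adjusted p = 4.16e-04). Kif23, a kinesin of the central spindle (chr9:61915905-61946774, minus strand), had 0.566, 0.824, 0.803, 0.644 and 0.715 in CDAHFD sham and 0.392, 0.434, 0.169 and 0.30 in CDAHFD RIC, against 0 to 0.0451 on chow. Again no RIC sample reached the lowest sham sample (-0.37 ± 0.06 (SE), adjusted p = 5.25e-04).

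Birc5, survivin of the chromosomal passenger complex (chr11:117849251-117855743, plus strand), had 0.0744, 0.338, 0.423, 0.193 and 0.424 FPKM in NC sham and 0.459, 0.508, 0.221, 0.141 and 0.263 in NC RIC. It had 2.27, 3.33, 1.8, 1.57 and 2.63 in CDAHFD sham and 1.17, 1.11, 0.86 and 1.18 in CDAHFD RIC, with all RIC samples below all sham samples (-0.65 ± 0.13 (SE), adjusted p = 0.00285). Cenpe, a kinetochore motor, had 1.03, 1.72, 0.874, 0.573 and 1.23 in CDAHFD sham and 0.445, 0.544, 0.513 and 0.464 in CDAHFD RIC, against 0 to 0.0341 on chow, also without overlap between the CDAHFD groups (-0.46 ± 0.10 (SE), adjusted p = 0.00433). Tpx2, a spindle assembly factor that activates Aurora A, had 2.2, 5.0, 1.78, 1.21 and 3.37 and 0.672, 1.1, 1.18 and 1.02, against 0 to 0.060 on chow, and was the fifth member without overlap (-0.82 ± 0.19 (SE), adjusted p = 0.00614).

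Cdc20, the activator of the anaphase-promoting complex, had the largest fall of any member on the log2(FPKM + 1) scale with all samples; by the ratio of means Plk1 (2.74) and Tpx2 (2.73) stood slightly above Cdc20 (2.72), and without sham 2 and 5 Mki67 fell more. Cdc20 had 6.33, 8.63, 3.86, 1.61 and 8.37 FPKM in CDAHFD sham and 0.924, 1.84, 3.02 and 2.71 in CDAHFD RIC, against 0 to 0.0853 on chow. Sham 4 lay within the RIC range and the other sham samples above it (-1.02 ± 0.28 (SE), adjusted p = 0.0169, and 0.0653 without CDAHFD RIC 1, where the difference was -0.81). Ube2c, the ubiquitin-conjugating enzyme of the same complex, shares 22.8% of its exonic bases with Tnnc2. It had 2.52, 4.68, 3.95, 2.11 and 6.57 in CDAHFD sham and 0.959, 1.44, 2.35 and 1.7 in CDAHFD RIC, against 0 to 0.0818 on chow. Here only sham 4 lay below the highest RIC sample, RIC 3 (-0.88 ± 0.19 (SE), adjusted p = 0.00431).

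Of the mitotic kinases, Plk1, Polo-like kinase 1, had 1.61, 2.97, 1.41, 0.868 and 2.26 FPKM in CDAHFD sham and 0.547, 1.12, 0.288 and 0.709 in CDAHFD RIC, against 0 to 0.153 on chow (-0.74 ± 0.16 (SE), adjusted p = 0.00469). Aurka, Aurora A of the spindle poles, had 1.3, 3.32, 1.66, 1.18 and 3.54 in CDAHFD sham and 0.841, 0.94, 0.939 and 1.2 in CDAHFD RIC, against 0.157 to 0.491 on chow (-0.62 ± 0.17 (SE), adjusted p = 0.0166). In both, sham 2 and 5 were the highest samples and sham 4 lay below the highest RIC sample. Aurkb, Aurora B, was listed at 0 in 5 of 5 NC sham samples and went from 0.519 ± 0.276 in CDAHFD sham to 0.263 ± 0.0721 in CDAHFD RIC without a call (adjusted p = 0.0552).

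Of the cyclins and their kinase, Ccna2 had 2.79, 5.51, 2.59, 1.8 and 4.63 in CDAHFD sham and 1.45, 1.19, 2.02 and 1.84 in CDAHFD RIC, against 0.0592 to 0.274 on chow (-0.71 ± 0.18 (SE), adjusted p = 0.00921). Ccnb2, whose values are given above, differed by -0.85 ± 0.22 (SE) (adjusted p = 0.0114). Ccnb1, cyclin B1, had 2.26, 6.76, 1.51, 1.52 and 5.3 in CDAHFD sham and 1.05, 1.24, 2.26 and 1.42 in CDAHFD RIC; 2 sham samples were far above the rest and it was not called (-0.70 ± 0.25 (SE), adjusted p = 0.0578). Cdk1 had a difference of -0.47 (adjusted p = 0.0519) and Kif20a of -0.64 (adjusted p = 0.05), both just outside the threshold. Kif20a had 1.48, 5.34, 1.9, 0.99 and 3.42 in CDAHFD sham and 0.91, 0.80, 1.63 and 1.26 in CDAHFD RIC.

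The remaining called members were Foxm1, Cenpa (the centromeric histone), Nusap1 and Kif11 (both of the spindle). Foxm1 had 0.0166, 0.016, 0, 0 and 0 FPKM in NC sham and 0.0244, 0, 0, 0.0088 and 0.0147 in NC RIC. It had 0.511, 0.211, 0.527, 0.439 and 0.439 in CDAHFD sham and 0.323, 0.105, 0.156 and 0.293 in CDAHFD RIC; unlike most G2/M genes it was lowest in sham 2 among the sham samples (-0.22 ± 0.06 (SE), adjusted p = 0.0203). Its call was lost without CDAHFD sham 3, RIC 2 or RIC 3 (adjusted p of 0.0522, 0.0713 and 0.0635, differences of -0.20, -0.18 and -0.20). Nusap1 differed by -0.46 (adjusted p = 0.0391), called in 14 of 19 fits that left out 1 sample and lost without CDAHFD sham 2, 3 or 5 or RIC 1 or 4. Kif11 differed by -0.36 (adjusted p = 0.0462), and Gins2, the S-phase call, by -0.33 (adjusted p = 0.0417). The other 5 G2/M genes not called were Bub1 (-0.29), Bub1b (-0.28), Cenpf (-0.22, a kinetochore protein), Prc1 (-0.29, of the central spindle) and Top2a (-0.23), with adjusted p from 0.058 to 0.178. The 6 MCM subunits ranged from -0.30 to 0.03 after RIC and none was called. Leaving out single samples ended the call in 16 of 19 fits for Kif11 and in 9 of 19 for Gins2.

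CDAHFD sham 2 and 5 stood apart within their group. They were the highest 2 of the 5 sham samples in 20 of 24 G2/M genes and in 3 of 18 S-phase genes; the highest S-phase value was in sham 3 in 12 of 18 genes. The mean log2(FPKM + 1) of the 24 G2/M genes was 1.35, 1.97, 1.38, 1.08 and 1.8 in the 5 CDAHFD sham samples and 0.85, 1.0, 1.04 and 1.04 in the 4 CDAHFD RIC samples, so every sham sample was above every RIC sample. The mean of the 18 S-phase genes was 1.53, 1.62, 1.87, 1.45 and 1.85 in CDAHFD sham and 1.69, 1.9, 1.31 and 1.5 in CDAHFD RIC, with the highest sample (RIC 2) and the lowest (RIC 3) both in the RIC group. Summed FPKM of the G2/M genes was 47, 87.3, 45.9, 30.2 and 75.1 in CDAHFD sham and 21.3, 26.4, 31.6 and 28.8 in CDAHFD RIC, where sham 4 and RIC 3 overlapped.

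Without both of these sham samples the median difference was -0.26 for G2/M and 0.05 for S-phase genes, and 10 G2/M genes and no S-phase gene were called lower after RIC, against 14.6% of all genes in that fit. These 10 were all among the 15. Mki67 then differed by -0.65 (adjusted p = 4.67e-04), Kif23 by -0.34 (adjusted p = 0.0021) and Birc5 by -0.46 (adjusted p = 0.0121). Cdc20, at -0.59 (adjusted p = 0.109), and Ccnb2, at -0.56 (adjusted p = 0.0648), were no longer called, nor were Cenpa, Nusap1 and Kif11. The RIC mean was still below the mean of sham 1, 3 and 4 in 24 of 24 G2/M and 8 of 18 S-phase genes, counts given without a share over all genes.

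**Figure D4:**
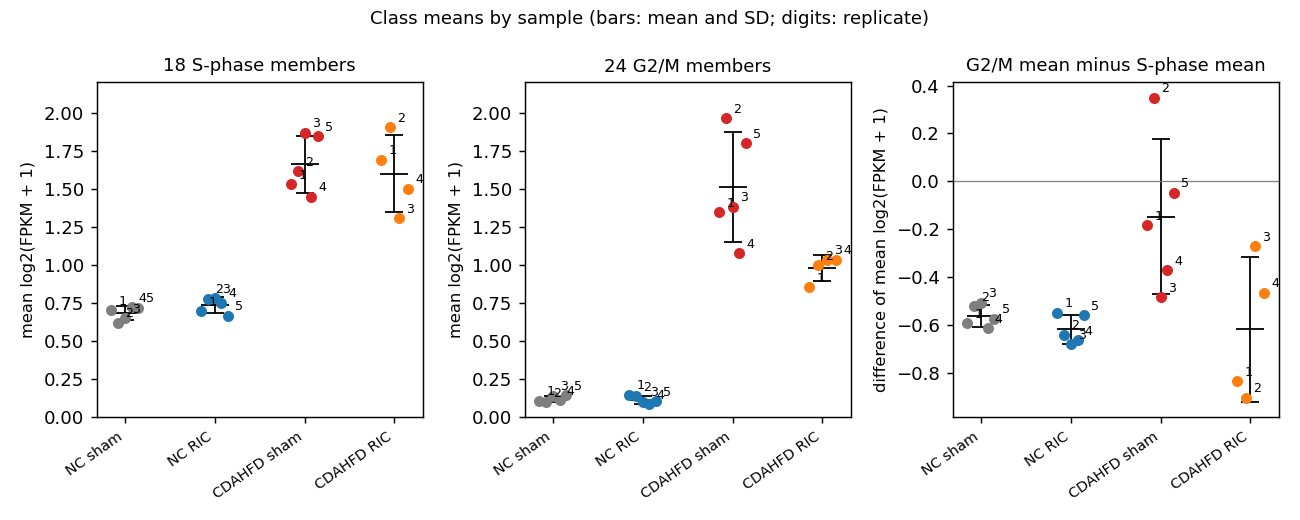
Mean log2(FPKM + 1) of the 18 S-phase genes (left), of the 24 G2/M genes (middle) and the G2/M mean minus the S-phase mean (right) in each sample (points, labelled by replicate), with group mean and SD. S-phase means overlap fully between CDAHFD sham and CDAHFD RIC, G2/M means lie below every sham sample in all 4 RIC samples, and the difference of the 2 means spans -0.19, 0.35, -0.48, -0.37 and -0.05 in CDAHFD sham.

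The G2/M mean minus the S-phase mean, taken within each sample, was -0.56 ± 0.05 in NC sham and -0.62 ± 0.06 in NC RIC (SD, n = 5 each). On CDAHFD it was -0.15 ± 0.32 in sham (SD, n = 5) and -0.62 ± 0.30 after RIC (SD, n = 4). In the CDAHFD RIC samples it was -0.84, -0.91, -0.27 and -0.47, so RIC 3 and 4 lay within the sham range and RIC 1 and 2 below it. The change of this quantity with diet depended on the pseudocount: it was 0.41 in sham and 0.00 in RIC livers with a pseudocount of 1, and 1.30 and 0.69 with 0.1. With CDAHFD RIC set against NC RIC, 24 of 24 G2/M genes and 15 of 18 S-phase genes were still called higher and 1 S-phase gene, Tk1, lower; of all genes tested 61.1% were called, 56.1% higher and 5.05% lower. The medians there were 0.92 for S-phase and 0.75 for G2/M genes, against 0.31 for all genes. With median-ratio scaling and quantile normalization 23 and 20 G2/M genes were called higher, against 4283 and 3717 of all 17311 genes. The share of all calls that were higher went from 91.7% to 55.5% and 48.7%. This comparison shares its CDAHFD RIC samples with the one above.

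On chow RIC left no member called by limma. None of the 42 genes passed, 1 had an unadjusted p under 0.05 (Tk1, 0.35, adjusted p = 0.352), and of all genes tested 0.393% were called. The median difference was 0.01 for S-phase and 0.00 for G2/M genes. On chow only 8 of 24 G2/M genes had a mean of at least 0.1 FPKM, and below it a fall on the log2(FPKM + 1) scale can only be small. The interaction, the RIC difference on CDAHFD minus that on chow, was called for 3 G2/M genes, all negative, and no S-phase gene (4.27% of all genes tested were called, 2.18% negative). These were Mki67 (-0.84), Kif23 (-0.40) and Birc5 (-0.68 ± 0.18 (SE), adjusted p = 0.0405). Mki67 and Kif23 lay below a mean of 0.1 FPKM on chow, where they could hardly fall, so their interaction nearly repeats the RIC difference on CDAHFD and does not show that RIC acts differently on the 2 diets. The Birc5 call was lost with a common sum of FPKM, median-ratio scaling and quantile normalization (adjusted p of 0.0749, 0.0751 and 0.0702), with no filter (0.0798), with a pseudocount of 0.1 (0.178) and without CDAHFD sham 2 and 5 (0.0642). The interaction was negative in 24 of 24 G2/M and 12 of 18 S-phase genes, and its median over all genes tested was -0.03. Of all interaction calls 48.9% were positive, against 75.1% with a common sum of FPKM. Without CDAHFD sham 2 it was called negative for 5 members, against 3.01% of all genes, and without CDAHFD sham 4 for 11, against 2.37%.

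Other genes of the cycle, taken from lists drawn up with earlier results known, were counted in the same way. They passed the same filter over all 19 samples, which a gene near 0 on chow can pass through its CDAHFD level. Among the mitotic genes Dlgap5 was listed at 0 in all NC sham samples, and Cdc25c and Melk in all NC RIC samples. How many passed on chow alone is not given here, so counts of list genes higher on CDAHFD are a description. Of all genes tested 59.1% were higher and 7.93% lower on CDAHFD in sham livers. After RIC on CDAHFD 14.3% were lower and 6.41% higher. Of 42 other mitotic genes tested 41 were higher on CDAHFD in sham livers, among them Mad2l1 (1.44, a checkpoint protein), and 25 were lower and none higher after RIC on CDAHFD, with a median of -0.31; they include Cdca8 (-0.44, adjusted p = 7.12e-04), which works with Birc5 and Aurkb. Of 26 genes of the replication fork and nucleotide supply 24 were higher on CDAHFD, and 2 were lower after RIC, Fen1 (-0.65) and Pold1 (-0.40), with a median of -0.03. Of 13 other origin genes 10 were higher and 1, Mcm10 (-0.95), lower on CDAHFD. After RIC Dbf4 (-0.43) and Cdc7 (-0.34), the 2 parts of 1 origin-firing kinase, were lower and Mcm10 (0.50) higher. These counts after RIC, 2 and 1 of 13, were near the 14.3% and 6.41% of all genes tested. The 2 of 26 genes of the replication fork and nucleotide supply lay below the 14.3%.

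Upstream of S phase, 7 of 8 G1 cyclins and kinases were higher on CDAHFD and 3 were lower after RIC, against 59.1% and 14.3% of all genes tested. Cdk4, a kinase of cyclin D, went from 5.15 ± 1.25 FPKM in NC sham to 20.9 ± 3.91 in CDAHFD sham and 10.1 ± 2.13 in CDAHFD RIC (-0.98, adjusted p = 8.24e-04 for RIC against sham). Ccnd1 had 58.3 ± 13.8 in CDAHFD sham and 37.1 ± 15.9 in CDAHFD RIC (-0.69, adjusted p = 0.0283), and Ccnd2 2.02 ± 0.513 and 1.21 ± 0.22 (-0.44, adjusted p = 0.00683). Of 6 CDK inhibitors tested, 4 were higher on CDAHFD and none was called after RIC; Cdkn1a (p21) had 9.59 ± 0.756 and 9.05 ± 2.75 FPKM. Of 15 genes of the RB, E2F and DREAM group 9 were higher and 1, Rbl2 (-0.37), the pocket protein p130 of DREAM, lower on CDAHFD. These 9 of 15 and the 4 of 6 CDK inhibitors were near the 59.1% of all genes called higher. After RIC Rbl2 (0.65) was higher while Lin37 (-0.64), E2f4 (-0.41) and E2f5 (-0.38) were lower. These counts, 1 and 3 of 15, were near the shares of all genes tested that were higher and lower after RIC. Of 15 p53 and DNA damage genes 12 were higher on CDAHFD, and after RIC Trp53 (-0.70), Chek2 (-0.36), Mdm2 (-0.40) and Bax (-0.57) were lower and Brca2 (0.21) higher. Of 8 hepatocyte mitogens and receptors 6 were higher and 2, Egfr (-2.24) and Met (-0.72), lower on CDAHFD, and after RIC the ligand gene Ereg was lower (-1.0) and Btc (0.50), Met (0.94) and Hgf (0.60) were higher.

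Markers of non-parenchymal cells moved with the diet. In sham livers 9 of 10 macrophage and monocyte markers, 8 of 9 T and NK cell markers, 4 of 4 neutrophil, 7 of 7 stellate, 6 of 6 cholangiocyte, 5 of 6 endothelial and 2 of 3 B cell markers tested were higher on CDAHFD, and 5 of 8 hepatocyte markers were lower. Of all genes tested 59.1% were higher and 7.93% lower, and the B cell count was near that share. The markers passed the same filter, so their counts higher on CDAHFD are a description too. Summed macrophage markers were 40.6 to 54.4 FPKM in NC sham, 32.5 to 56.6 in NC RIC, 398 to 581 in CDAHFD sham and 276 to 599 in CDAHFD RIC. Summed T and NK cell markers were 0.753 to 1.46, 0.636 to 1.82, 4.55 to 12.6 and 3.49 to 7.8 in the same order. Summed B cell markers were 0.384 to 1.37, 0.487 to 1.45, 1.14 to 2.6 and 1.57 to 3.58. Summed cholangiocyte markers were 16.5 to 35.1, 14.5 to 27.4, 143 to 479 and 101 to 381, and endothelial markers 8.69 to 19.7, 3.96 to 12.2, 18.9 to 32.2 and 10.5 to 30. Ly6g of neutrophils was listed at 0 in all chow samples. Erythroid markers summed to 15.4 to 19.6, 15 to 17.7, 4.81 to 7.83 and 6.25 to 11, with Hemgn listed at 0 in all NC sham and all CDAHFD RIC samples. Of 3 erythroid markers tested, however, 1 was higher and 1 lower on CDAHFD in sham livers, so the lower sum does not hold for each of them. The part of these cells in the members' rise was not tested.

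After RIC on CDAHFD 4 of 7 stellate cell markers were lower (Acta2, -1.75; Col3a1, -1.15; Col1a1, -1.02; Des, -0.34) and none higher. Of all genes tested 14.3% were lower and 6.41% higher. Summed FPKM of the stellate cell markers was 34.5 to 105 in CDAHFD sham and 18 to 51.9 in CDAHFD RIC, against 3.09 to 5.34 in NC sham and 3.25 to 3.9 in NC RIC. Of 4 neutrophil markers 1, S100a8, was lower (sums of 13 to 35.5 and 12.5 to 19.1 FPKM), of 10 macrophage markers Timd4 and Adgre1 were higher, and of 9 T and NK cell markers Klrb1c was higher and Cd8b1 lower. No B cell, cholangiocyte, endothelial or erythroid marker was called, and of 8 hepatocyte markers Cps1 was higher and Ttr lower. The part of these markers' cells in the fall of the G2/M genes was not tested.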

How the data were processed

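Groups of the 19 liver samples came from the labels. The authors deposited FPKM for all of them in a single table. Per the submitters' processing notes, which give no roles, the tools were HISAT2 2.2.1, FastQC 0.11.9, DESeq2 1.18.1, Trimmomatic 0.38, R 3.4.1 and HTSeq 0.13.5, with the build mm10. What computed the FPKM, on which annotation and with or without strand, is not given in the sources used here. The 3225 entries without a name (0.123% to 0.204% of a sample's FPKM) were left out, and 1 marker gene is not reported here. Whole reads could not be recovered: 30.8% to 43.4% of low values lay within 0.02 of a whole number, so depth is an estimate and no count model was used. No 2 samples were duplicates.

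From the deposited FPKM, log2(FPKM + 1) was computed, and 17311 genes (mean FPKM 0.1 or more) were fitted with limma 3.58.1 in R 4.3.3 (1 mean per group, 15 residual degrees of freedom, eBayes with a trend, two-sided tests). The script was tested on simulated data. Positions came from the GENCODE annotation of GRCm38 (42 of 42 members found) and promoters from RefSeq; of 37 windows, 32 ended inside a GENCODE transcript of the gene, tested on their last 30 bases. The members and lists were chosen with earlier results of these data known. Every member may be named; values in each sample are given for the highest member of each role, the members with the smallest p after RIC and those not called on CDAHFD, and some further members are shown beside them. From the other lists the rule names up to 3 genes with the smallest p for diet and up to 2 for RIC; others named there, where 5 or fewer were called, and the values in each sample of Ccnb1 were chosen after their values were seen. Alternatives covered pseudocount, filter, scaling, sample weights, the groups in the fit, a replicate block, single samples left out, and CDAHFD sham 2 and 5 left out together, which stood apart in earlier work on these data. Tables were handled with data.table (version 1.17.8), python 3.11.15, numpy 2.4.6 and pandas 2.3.3, and plots drawn with matplotlib 3.10.9.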

Additional observations from a re-analysis of the deposited data

Results flagged for a closer look

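The difference between the RIC effects on CDAHFD and on chow passed the test of the interaction in 3 members: Mki67 (-0.84), Kif23 (-0.40) and Birc5 (-0.68). Mki67 and Kif23 were so low on chow that a fall there could hardly be measured, and their difference between diets is set largely by that floor. The Birc5 call was lost in 13 of 19 fits that left out 1 sample, where its adjusted p reached 0.0824 (without CDAHFD RIC 3, difference -0.63).

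Single samples stood far from the rest of their group in 13 of 165 tests of a member in a group (7.88%). The test is set to flag about 5% of groups with normally spread values. For Uhrf1, Aurkb, Bub1b, Cdc20 and Cenpf on chow the other samples of the group were tied (at 0 for Uhrf1 and Bub1b). Any value above such a tie is flagged, so the 2 shares cannot be compared. In CDAHFD sham, sample 2 was highest for Bub1b (1.84 FPKM) and lowest for Foxm1 (0.211 FPKM). In NC sham the samples were Rrm2 in sample 1 (2.15), and Plk1 (0.129) and Uhrf1 (0.0591) in sample 4. In NC RIC they were Ccne2 (1.66) and Cenpf (0.0228) in sample 4, Plk1 (0.153), Bub1b (0.0318) and Aurkb (0.00958) in sample 1, Nusap1 (0.334, high) and Kif23 (0.00546, low) in sample 2, and Cdc20 (0.0663) in sample 5.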

How the results depend on the processing

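The count of members called after RIC on CDAHFD was 16, against 3582 of all 17311 genes. It was 10 with a pseudocount of 0.1 (2683 of all genes) and 7 with a filter of at least 1 FPKM (17 members left, 2886 of 10577 genes). With only the CDAHFD groups fitted it was 3 (1742 of all genes), and without CDAHFD sham 2 and 5 it was 10 (4039). With single samples left out it was 12 to 23 (2471 to 4119). The count on CDAHFD in sham livers was 14 with that filter (7852 of 10577 genes) and 39 to 40 with single samples left out (11126 to 11636 of 17311). In RIC livers it was 15 (7435 of 10577) and 39 to 40 (9634 to 10695 of 17311). On chow it stayed at 0. The interaction count was 1 with either the pseudocount (510 of 17311 genes) or the filter (711 of 10577). It was 2 to 11 with single samples left out (435 to 1070 of 17311). With the replicate number as a block the counts were 39, 40, 14, 0 and 3. Correlations of same-numbered samples ran from -0.162 (CDAHFD RIC and sham, number 3) to 0.136 (NC RIC and sham, number 5). Beyond these values, pairing of samples by number was not tested. The change of the G2/M minus S-phase mean was 0.41 for diet in sham livers (1.30 with the pseudocount, 1.32 with the filter, 0.29 to 0.50 with single samples left out). It was 0.00 for diet in RIC livers (0.69, 0.65, -0.12 to 0.10), -0.47 for RIC on CDAHFD (-0.59 to -0.35) and -0.06 for RIC on chow (-0.17 with the pseudocount, -0.07 to -0.04). Ccne2 on CDAHFD turned to -0.29 with median-ratio scaling, -0.43 with quantile normalization, -0.11 without CDAHFD sham 2 and 5, -0.0200 without NC sham 5 and -0.0239 without CDAHFD sham 5 (highest 0.16). The cause of these shifts was not tested, except that the filter leaves fewer members and smaller fits hold fewer samples. The fit of only the CDAHFD groups also does not share the spread of the chow samples. Low reads on chow limit the folds of members near 0 there, which include most G2/M genes, and less so those of members such as Pcna and Mcm7.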
